A study of Arabidopsis thaliana with 12 samples.

Results

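The nuclei of the suspensor were set against the nuclei of the proembryo in Arabidopsis thaliana, accession Col-0, over 3 arrays of each, chosen by their titles and making up 6 of the 12 arrays of the series. Embryos of 2 to 16 cells were fixed inside their ovules in 0.1% paraformaldehyde, and nuclei carrying a tissue-specific marker were then sorted by flow cytometry. All plants grew in 16 h light and 8 h dark. The sources used here name neither the promoters of the marker lines nor how many nuclei or plants stand behind an array. The 3 arrays of whole-embryo nuclei, of the same stage and fixation, entered the fit to estimate the spread, and 3 arrays of whole-embryo cells, from embryos of 8 to 32 cells squeezed out of their ovules, are quoted only as levels. The titles call the replicates biological without saying what was repeated, so p-values measure the spread between these arrays.

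The plant zygote divides into an apical cell, which founds the proembryo and through it most of the plant, and a basal cell, whose descendants form the suspensor. The suspensor is a short file of cells that anchors the embryo to the maternal tissue, feeds it and supplies it with hormones before it degenerates. The proembryo goes on dividing while the suspensor soon stops, and auxin, synthesised and moved between the lineages, helps to set their identities.

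Expression was read on Affymetrix ATH1 arrays as linear intensity per probe set, and differences were tested with limma on log2(intensity + 16), a scale that understates changes of dim genes. A probe set counts as changed where its Benjamini-Hochberg adjusted p, over the 12787 probe sets kept, lay under 0.05. In a sorted population, a smaller share of cells carrying a transcript and less of it per nucleus cannot be told apart.

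Only part of the array can be named here, and the lineage labels could be checked only thinly. Of 11 suspensor markers and 18 proembryo markers listed, 0 and 3 have a named probe set. The markers were listed with earlier results of these data known, so they give no independent check of the labels. YUC4 fell in the suspensor (described below), a call that held in 4 of the 9 fits that left out 1 nuclei array. It held in 2 of the 6 that left out a suspensor or proembryo array. BBM, which drives embryo formation when overexpressed, read 105, 123 and 76.3 intensity units in suspensor nuclei and 271, 193 and 213 in proembryo nuclei, without overlap but not past the threshold (log2 difference -1.05, SE 0.302, limma adjusted p = 0.0815). PHV, a leaf polarity factor, overlapped (0.15, SE 0.752, limma adjusted p = 0.944). Its difference was 0.80, -0.40 and 0.04 without proembryo replicates 1, 2 and 3, and 0.00, 0.00 and 0.43 without suspensor replicates 1, 2 and 3.

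Listed seed coat genes had high readings in both lineages, and listed endosperm genes had low ones. Which tissue these transcripts came from was not tested. BAN, an enzyme of tannin synthesis active in the seed coat, read 7828, 11449 and 9067 in suspensor nuclei and 7835, 4435 and 6932 in proembryo nuclei (0.58, SE 0.245, limma adjusted p = 0.25). DFR, a flavonoid enzyme, read 1639 to 2320.1 in suspensor and 2310.4 to 2613 in proembryo nuclei (-0.40, SE 0.225, limma adjusted p = 0.407). These were the 2 of 10 listed seed coat genes with a named probe set, 1 slightly higher and 1 slightly lower in suspensor nuclei. Of 10 endosperm markers, 3 had one, AGL62, AGL80 and IKU2, and their highest reading on the 6 arrays was 173. All 3 had a higher mean in suspensor nuclei, with overlapping groups. AGL62 read 62.9, 116 and 125 against 45.1, 29.6 and 115 (0.67, SE 0.564, limma adjusted p = 0.599) and AGL80 156, 173 and 115 against 124, 167 and 25.3 (0.67, SE 0.451, limma adjusted p = 0.492). IKU2, too dim to be tested, averaged 6.09 and 5.27 log2 units. The part of neighbouring tissue in the differences below was not tested.

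The suspensor arrays were less alike than the proembryo arrays. Across the probe sets kept, log2 levels correlated at 0.845 to 0.886 among suspensor arrays, at 0.879 to 0.919 among proembryo arrays, and at 0.793 to 0.909 between the groups, where suspensor replicate 1 with proembryo replicate 1 gave the highest value. Spiked hybridisation controls lay at 11.36, 13.01 and 13.84 log2 units, as a mean over the controls, on suspensor replicates 1, 2 and 3 and 11.64 to 12.55 on the proembryo arrays (exact permutation p = 0.5). For actin, signal at the 3' end exceeded that at the 5' end by a log2 value of 3.25 to 3.75 in suspensor and 4.31 to 4.53 in proembryo nuclei, without overlap (exact permutation p = 0.1, the smallest that 3 against 3 can give), while the same measure of ubiquitin (exact permutation p = 0.4) and of GAPDH (exact permutation p = 0.7) overlapped. The part of these measures in the results was not tested.

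Of the 12787 probe sets, 89 (0.696%) rose and 171 (1.34%) fell in suspensor nuclei, 260 (2.03%) in all. The median size of the change was 1.48 log2 units among those that rose and 1.36 among those that fell. The groups' arrays did not overlap for 88 of the 89 and 169 of the 171, against 19.3% of all probe sets kept (9.61% higher and 9.66% lower). The median level of those that rose was 231 intensity units in proembryo and 722 in suspensor nuclei, and of those that fell 963 and 399. Of the 89, 62 lay above the array median on all 6 arrays, and 4 passed the filter on dim probe sets through the suspensor arrays alone. Of the 171, 138 lay above it on all 6, and 9 were above it on the 3 proembryo arrays and on 0 suspensor arrays.

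**Figure D1:**
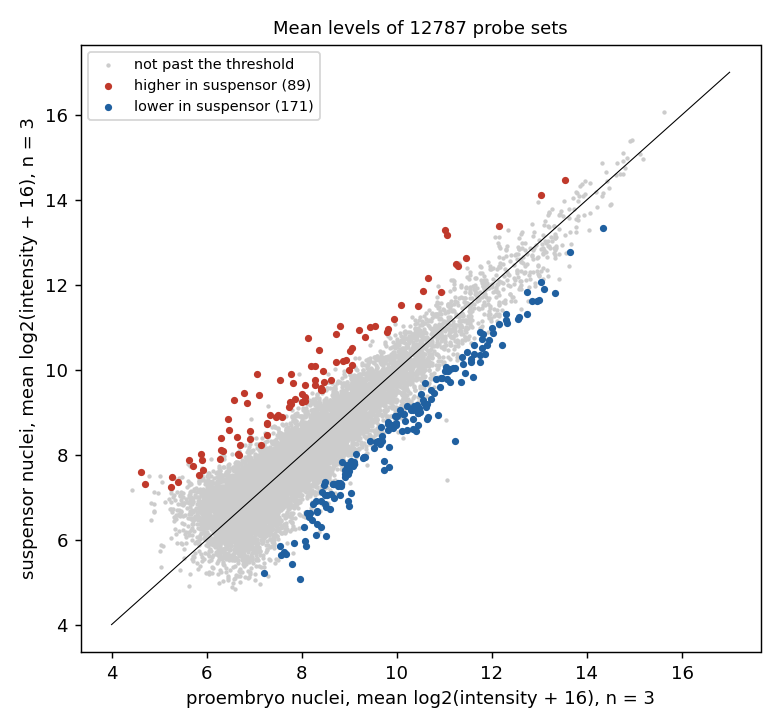
Mean log2(intensity + 16) of each of the 12787 probe sets kept in proembryo nuclei (horizontal axis) and suspensor nuclei (vertical axis), n = 3 arrays each, with the diagonal marking equal levels. The 89 probe sets past the threshold that were higher in suspensor nuclei are red and the 171 that were lower are blue.

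The 8 suspensor-high genes with a symbol or name were PAP20, SWEET8, ATSPS4F, TBL38, RALFL18, scpl48, FIP2 and CCL. PAP20, a purple acid phosphatase, an enzyme class that releases phosphate from organic esters, read 1074, 1481 and 1705 in suspensor nuclei, 317, 630.1 and 153 in proembryo nuclei, and 391 to 751 in whole-embryo nuclei. All suspensor arrays lay above all proembryo and whole-embryo nuclei arrays. PAP20 rose 4.26-fold (2.09 on the log2 scale, SE 0.384, limma adjusted p = 0.0111), and it was past the threshold in all 9 fits that left out 1 nuclei array. The other 7 passed in fewer of the 9, as given beside each. None of the 8 passed when limma used no intensity trend. Of the 9 fits, 3 left out a whole-embryo nuclei array, which keeps the difference as it was. In the 6 that left out a suspensor or proembryo array, PAP20 passed in 6. There TBL38 and CCL passed in 3 each, SWEET8 and FIP2 in 2 each, and ATSPS4F, scpl48 and RALFL18 in 1 each.

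SWEET8, a member of the family of carriers that let sugar out of cells, read 1456, 3108 and 1957 in suspensor nuclei against 447, 1198 and 719.9 in proembryo nuclei. The groups did not overlap, and the lowest suspensor array stood 0.28 log2 units above the highest proembryo array. SWEET8 rose by 1.49 (SE 0.364, limma adjusted p = 0.0413) and passed in 4 of the 9 leave-one-out fits. ATSPS4F, a sucrose phosphate synthase, which makes the precursor of sucrose, read 715, 677 and 854 against 345, 285 and 349. Its gap between the groups was wider, 0.93 log2 units, at a smaller difference of 1.16 (SE 0.246, limma adjusted p = 0.022), and it also passed in 4 of the 9.

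TBL38 belongs to the trichome birefringence-like family, whose members acetylate wall polysaccharides. It read 2869.9, 5581 and 5881 in suspensor nuclei and 2049, 1592 and 1239 in proembryo nuclei, so that suspensor replicate 1 was the one nearest the proembryo (1.5, SE 0.281, limma adjusted p = 0.0127, 6 of the 9). RALFL18, a secreted peptide of the RALF family, which signals through receptor kinases at the wall, read 1992, 2142 and 1959.9 against 426, 1699 and 426. Proembryo replicate 2 alone stood near the suspensor level (1.56, SE 0.382, limma adjusted p = 0.0417, and 2.21 without that array, 1 of the 9).

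The remaining suspensor-high genes with a symbol were scpl48, FIP2 and CCL. The gene scpl48 encodes a serine carboxypeptidase-like protein, of a family of vacuolar and secreted hydrolases and acyltransferases. It read 687, 491 and 469 in suspensor nuclei and 327, 155 and 147 in proembryo nuclei (1.39, SE 0.348, limma adjusted p = 0.0464, 2 of the 9 leave-one-out fits). Whole-embryo nuclei read 99.8 to 216 for scpl48. FIP2 read 557, 598 and 621 against 272, 185 and 272 (1.25, SE 0.261, limma adjusted p = 0.0209, 5 of the 9), with the widest gap of the 8, 0.99 log2 units. CCL has a messenger RNA known to be short-lived and under the circadian clock.

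It read 6507, 4749 and 5661 in suspensor nuclei, 2729, 1833 and 3006 in proembryo nuclei and 1179 to 1805 in whole-embryo nuclei. The proembryo arrays therefore lay above the whole-embryo nuclei arrays as well. In whole-embryo cells CCL read 295, 147 and 146. The difference between the lineages was 1.17 log2 units (SE 0.252, limma adjusted p = 0.0231), past the threshold in 6 of the 9.

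The 7 proembryo-high genes with a symbol or name were YUC4, ROXY1, NDB4, TUB7, HTB2, NOB1 and MAC3B. None of the 7 passed when limma used no intensity trend. In the 6 fits that left out a suspensor or proembryo array, ROXY1 passed in 4 and NDB4 and TUB7 in 3 each. In those fits YUC4 and NOB1 passed in 2 each, and HTB2 and MAC3B in 1 each. YUC4, a flavin monooxygenase that completes auxin synthesis, read 159, 129 and 155 in suspensor nuclei and 277, 346 and 432 in proembryo nuclei. It fell by 1.15 log2 units (SE 0.266, limma adjusted p = 0.0321) and passed in 4 of the 9 leave-one-out fits. The whole-embryo nuclei, at 323 to 339, lay within the proembryo range. Whole-embryo cells read 119, 127 and 204, with a mean of 7.34 log2 units beside 7.35 in suspensor nuclei.

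ROXY1, a glutaredoxin known for its role in petal development, read 69.5, 144 and 93.2 in suspensor nuclei, 293, 568 and 237 in proembryo nuclei and 280.4 to 371 in whole-embryo nuclei. Suspensor nuclei stood apart from both other nuclei groups. ROXY1 fell by 1.64 (SE 0.337, limma adjusted p = 0.0199), the largest drop among genes with a symbol past the threshold, and passed in 7 of the 9. NDB4, an NAD(P)H dehydrogenase on the outer face of the inner mitochondrial membrane, read 653, 406 and 708 against 1495, 2106 and 1240.1, and fell by 1.43 (SE 0.299, limma adjusted p = 0.0208, 6 of the 9). In whole-embryo cells ROXY1 read 273 to 501, above the suspensor arrays, and NDB4 395 to 442, at the low end of its suspensor arrays.

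TUB7, a beta-tubulin and so a building block of microtubules, read 541, 345 and 341 in suspensor nuclei and 899, 940.3 and 1198 in proembryo nuclei, and fell by 1.29 (SE 0.253, limma adjusted p = 0.0167, 6 of the 9 leave-one-out fits). HTB2, a histone H2B, read 956, 1043 and 643 against 2024, 1664 and 1726, and fell by 1.05 (SE 0.243, limma adjusted p = 0.0325, 3 of the 9). For both genes the proembryo arrays were closer together than the suspensor arrays. In TUB7 only suspensor replicate 1 stood off, above the others, and in HTB2 only suspensor replicate 3, below them.

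NOB1 (AT5G41190), which in yeast cuts the precursor of the small ribosomal subunit's RNA, read 321, 187 and 195 in suspensor nuclei and 603, 479 and 787 in proembryo nuclei. It fell by 1.36 (SE 0.294, limma adjusted p = 0.0231, 5 of the 9 leave-one-out fits). MAC3B, a core subunit of a complex that joins the spliceosome, read 2004, 1790.4 and 1823 against 3501, 3870 and 2977. It fell by 0.87 (SE 0.217, limma adjusted p = 0.0456, 1 of the 9), the smallest called change.

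**Figure D2:**
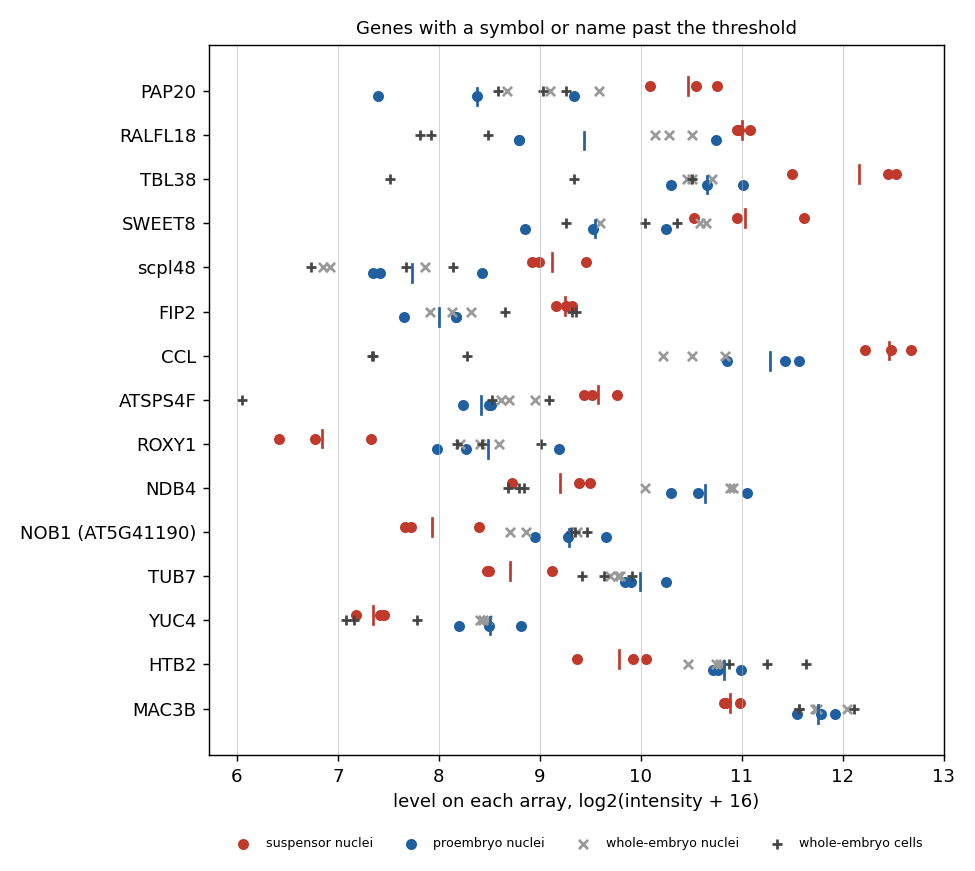
Level on each array, as log2(intensity + 16), of the 15 genes with a symbol or name that were past the threshold, with suspensor nuclei in red, proembryo nuclei in blue, whole-embryo nuclei as grey crosses and whole-embryo cells as dark plus signs; short bars mark the means of 3 arrays. The red and blue points do not overlap for any of the 15, which is how they were chosen, and RALFL18 has 1 blue point near the red ones.

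Most genes on the array are known here only by a locus tag, and so are most of those that changed. Over the whole array 1580 of the 13513 probe sets with 1 gene have a symbol other than the locus tag. Of the 89 probe sets that rose, 55 matched 1 gene, 8 of these with a symbol or name and 47 with a locus tag alone, 1 matched several genes and 33 are unnamed here. Of the 171 that fell, 79 matched 1 gene, 7 with a symbol or name and 72 with a locus tag alone, 10 matched several and 82 are unnamed here. The annotation used gives these loci no function, so none is stated.

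The locus with the largest rise was AT1G47540. It read 1681, 846 and 579.7 in suspensor nuclei, 148, 222 and 43.6 in proembryo nuclei and 157 to 479 in whole-embryo nuclei. It rose 7.22-fold (log2 difference 2.85, SE 0.492, limma adjusted p = 0.00895). AT3G62480 was steadier, at 771, 657 and 624 against 89.8, 156 and 56.6, with a gap of 1.90 log2 units between the groups (2.67, SE 0.33, limma adjusted p = 0.00134). Both were also present in whole-embryo cells, AT1G47540 at 429.8 to 1538 and AT3G62480 at 231 to 460.5.

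AT2G31945 and AT1G05340 also had a large rise but stood near the bottom of the scale in whole-embryo cells. AT2G31945 read 2298, 1118 and 1935 in suspensor nuclei, 349.6, 298 and 176 in proembryo nuclei and 56.6, 27.5 and 13.1 in cells (2.62, SE 0.345, limma adjusted p = 0.00134). AT1G05340 read 948, 543 and 555 in suspensor, 196, 107 and 82.9 in proembryo and 38.3, 24.8 and 3.25 in cells (2.30, SE 0.386, limma adjusted p = 0.0071). AT1G24600, at 304, 336 and 859.6 against 126, 29.4 and 86.1, had 1 high suspensor array, replicate 3 (2.41, SE 0.498, limma adjusted p = 0.0199). It passed in 7 of the 9 leave-one-out fits, and in 4 of the 6 without a suspensor or proembryo array. The other 4 loci passed in all 9. Whole-embryo nuclei means of AT2G31945, AT1G05340 and AT1G24600 (7.90, 6.86 and 6.17 log2 units) lay below the proembryo means (8.13, 7.10 and 6.44). Those of AT1G47540 and AT3G62480 (8.44 and 7.75) lay above them (7.05 and 6.78).

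A pair of loci with high readings, picked after their values were seen, also rose. AT1G04645 read 10903, 10555 and 8744 in suspensor nuclei against 2192, 3797 and 1041 in proembryo nuclei, a 4.84-fold difference (2.28, SE 0.357, limma adjusted p = 0.0057). AT1G09370 read 8057, 9799 and 9844 against 2154, 2863 and 1538, a 4.32-fold difference (2.11, SE 0.25, limma adjusted p = 0.00134). On these probe sets every suspensor array was above every array of the other 3 groups.

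On the proembryo side AT5G48350 had the largest difference among probe sets past the threshold with 1 gene. It read 284, 473 and 206 in suspensor nuclei and 4104, 1821 and 1798 in proembryo nuclei, and fell by 2.91 log2 units (SE 0.374, limma adjusted p = 0.00134), a 7.49-fold difference. AT5G62440 read 219, 175 and 186 against 895, 724 and 1099, and fell by 2.12 (SE 0.278, limma adjusted p = 0.00134). Its other probe set read 185, 197 and 101 against 258, 314 and 335, the same way without overlap but not past the threshold (-0.89, SE 0.293, limma adjusted p = 0.129).

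The next losses had a wide spread among suspensor arrays. AT1G77550 read 92.1, 284 and 38.8 in suspensor nuclei and 614, 378 and 502 in proembryo nuclei (-2.06, SE 0.487, limma adjusted p = 0.036, 3 of the 9 leave-one-out fits). AT4G00390 read 51.8, 66.5 and 7.14 against 161, 229 and 181 (-2.02, SE 0.434, limma adjusted p = 0.0231, 5 of the 9, and -1.30 with a pseudocount of 64). AT1G71870 read 88.5, 119 and 24.3 against 213, 314 and 425 (-1.96, SE 0.411, limma adjusted p = 0.0211, 6 of the 9). In all 3 suspensor replicate 3 was the lowest array. In the 6 fits that left out a suspensor or proembryo array, these loci passed in 1, 2 and 3, in the order given.

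**Figure D3:**
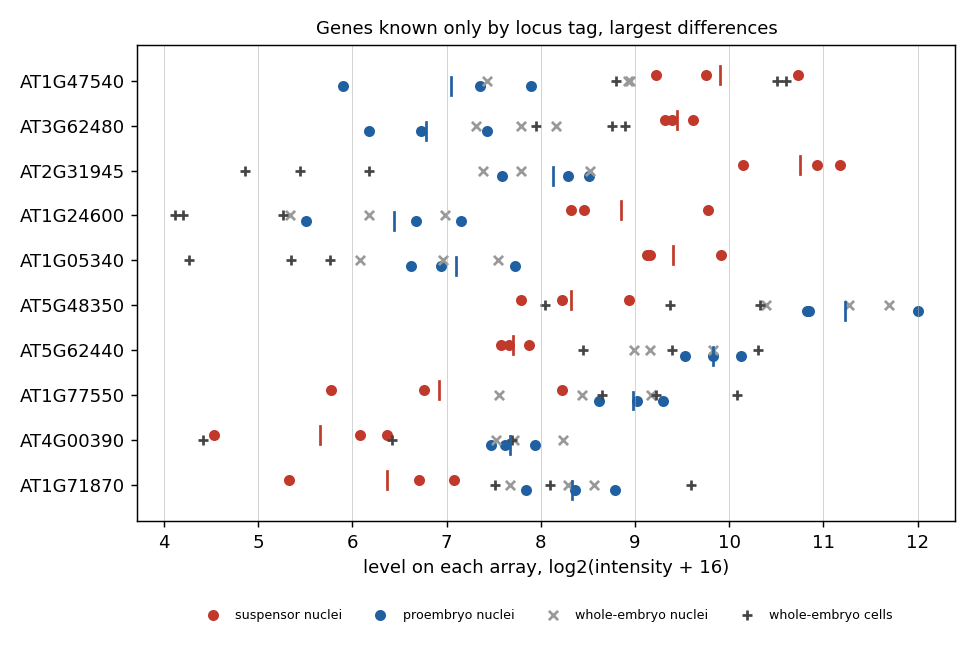
Level on each array, as log2(intensity + 16), of the 5 loci with the largest rise and the 5 with the largest fall among genes past the threshold known only by a locus tag. Symbols are the same as in the plot of named genes, and short bars mark means of 3 arrays. AT2G31945, AT1G24600 and AT1G05340 have their whole-embryo cell arrays (plus signs) at the left end of their rows, while AT1G47540 has 2 of them within the suspensor range and 1 below it.

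Of the 260 probe sets, 48 were past the threshold in each of the 9 fits that left out 1 nuclei array, 20 higher and 28 lower in suspensor nuclei, and 27 of these matched 1 gene. PAP20 was the only one of the 27 with a symbol. Besides the loci above, the lower ones, chosen after their values were seen, included AT3G62870 (5017, 3219 and 2784 against 10581, 10255 and 9832), AT5G48480 (2549, 2597 and 2447 against 6565, 6785 and 7101) and AT3G03920 (1042, 933 and 723 against 3229, 2728 and 3312). Within each of these the proembryo arrays agreed closely, and the suspensor arrays lay clearly below. The higher ones included AT1G16950, at 1212, 1044 and 952 against 358, 225 and 261 and at 31, 5.7 and 2.82 in whole-embryo cells.

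In the gene order of assembly TAIR10.1 there were 2 adjacent pairs, AT2G27710 with AT2G27720 (-1.75 and -0.91) and AT4G29020 with AT4G29030 (-1.24 and -1.69), and each pair fell together. Whether the probe sets of a pair share targets was not tested.

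Gene families were then read from the symbols, with the brightest probe set of each gene that passed the filter. Over all 7032 genes measured this way the median log2 difference was 0.02, 51.9% were higher in suspensor nuclei, 0.782% rose, 1.12% fell and 18.9% had groups that did not overlap. Across the 31 families the share of members whose groups did not overlap ran from 5.88%, for plastid-encoded and for DNA replication and repair genes, to 40.0% of 5 cytochrome P450s. Families are described by their counts and medians beside these, and few members of any passed the threshold.

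The families with the highest medians were autophagy and the sugar and amino acid carriers. Autophagy, by which cells enclose their own contents and pass them to the vacuole, had 10 genes measured of 10, mostly of the ATG8 group, the small proteins that coat the forming membrane. The median was 0.56, with 8 higher, and 0 rose past the threshold. The median per array ran from 8.18 to 9.09 log2 units in suspensor and from 8.36 to 9.14 in proembryo nuclei, which overlap. ATG8H read 182, 215 and 209 in suspensor and 114, 37.5 and 82.1 in proembryo nuclei (1.31, SE 0.405, limma adjusted p = 0.108). ATG8D (0.75, SE 0.245), APG8A (0.88, SE 0.29), ATG8F (0.70, SE 0.26) and ATG8E (0.85, SE 0.356) leaned the same way, and ATG8C stood at -0.59 (SE 0.435). ATG8F read 3577, 3279 and 2115 against 2222, 1327 and 1962, so its groups overlap.

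Of 20 sugar and amino acid carriers on the array, 12 were measured, all of them SWEET, TMT or SFP sugar carriers, with a median of 0.45, 10 higher, 1 risen (SWEET8) and 0 fallen. SFP2, a sugar porter, read 152, 231 and 292 against 93.1, 134 and 139 without overlap, at 0.78 (SE 0.323, limma adjusted p = 0.244). SWEET7 (0.66, SE 0.296), SWEET11 (0.73, SE 0.448), SWEET16 (1.13, SE 0.684) and SWEET1 (0.51, SE 0.269) were not past the threshold, and TMT2 stood at -0.51 (SE 0.483). The median per array ran from 7.42 to 8.00 log2 units in suspensor and from 6.99 to 7.54 in proembryo nuclei, which overlap.

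Genes of wall and secretion lay on both sides within families. Of 18 trichome birefringence-like genes measured, the median was 0.23 and TBL38 alone rose. TBL15 read 327, 439.6 and 935 against 178, 302 and 162 (1.25, SE 0.358, limma adjusted p = 0.0786), and TBL39 went the other way, at 558, 565 and 313 against 1052, 949 and 788 (-0.97, SE 0.282, limma adjusted p = 0.0825). Among 22 secreted signalling and cysteine-rich peptides the median was -0.10, with RALFL18 risen, RALFL34 at -0.60 (SE 0.234) and the defensin PDF1.2 at -1.35 (SE 0.559). Of 17 carboxypeptidase-like genes scpl48 rose, against a family median of -0.24. Expansins and xyloglucan endotransglucosylases, which loosen and rejoin wall polymers (12 measured, median 0.18), and cellulases with other wall enzymes (18 measured, median 0.09) had 0 members past the threshold, with XTH16 at -0.79 (SE 0.275) and GH9B18 at 0.74 (SE 0.255).

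The families with the lowest medians were histones, organelle RNA editing and repeat proteins, and mRNA processing. Of 8 histones 7 were measured, with a median of -0.64, 5 lower, and HTB2 alone fallen. The median per array ran from 9.36 to 10.05 log2 units in suspensor and from 10.69 to 10.99 in proembryo nuclei, without overlap. The H2B genes differed among themselves. HTB1 read 2538, 1125 and 662 in suspensor nuclei and 3385, 2325 and 1895 in proembryo nuclei (-0.98, SE 0.358, limma adjusted p = 0.174), HTB4 stood at -0.64 (SE 0.293), and HTB11 read 1195, 2476 and 2573 against 2481, 1651 and 1639.7 (0.06, SE 0.302). HTR12, the centromeric histone H3, stood at -0.76 (SE 0.486) and the linker histone HIS1-3 at 0.04 (SE 0.389).

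Of 24 measured genes of mRNA processing and export 19 lay lower in the suspensor (median -0.47), and 1, MAC3B, fell. Its paralogue MAC3A read 367, 247 and 452 against 462, 645 and 560 without overlap (-0.65, SE 0.273, limma adjusted p = 0.251). Y14, a core protein of the exon junction complex, stood at -0.94 (SE 0.285), FY, of the polyadenylation machinery, at -0.82 (SE 0.261), the splicing factor PRP39 at -0.82 (SE 0.261) and the RNA-binding ATRBP45C at -0.96 (SE 0.319). For mRNA processing the median per array ran from 7.54 to 7.88 log2 units in suspensor and from 7.91 to 8.3 in proembryo nuclei, without overlap. The 6 editing and repeat proteins, which act on chloroplast and mitochondrial RNA, were all lower (median -0.50), with PPR596 at -0.88 (SE 0.286) and 0 past the threshold. Their medians per array, 6.27 to 7.08 in suspensor and 7.06 to 7.15 in proembryo nuclei, overlap.

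Genes that make ribosomal RNA and process it in the nucleolus, among them the polymerase subunits NRPA1 and NRPA2 that are also counted below, had a median of -0.38 over 9, with 8 lower and NOB1 fallen. The median per array ran from 7.84 to 8.34 log2 units in suspensor and from 8.39 to 8.77 in proembryo nuclei, without overlap. RRP41L, of the RNA exosome, read 180.3, 158 and 169.6 against 309.8, 292 and 349, without overlap, at -0.84 (SE 0.288, limma adjusted p = 0.142). DIM1A, a ribosomal RNA methyltransferase, stood at -0.74 (SE 0.348) and IMP4 at 0.04 (SE 0.297). Of 11 RNA polymerase subunits 9 were lower (median -0.23), with NRPB12 at -0.86 (SE 0.261, limma adjusted p = 0.0981) and 0 past the threshold.

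Tubulins and microtubule proteins had a median of -0.31 over 14, with 12 lower and TUB7 fallen. TUA6 stood at -1.04 (SE 0.357) but TUB5 read 103, 171 and 226 in suspensor and 56.7, 30.4 and 92.6 in proembryo nuclei (1.29, SE 0.474, limma adjusted p = 0.176), opposite to TUB7. Cell division genes (9 measured, 7 lower, median -0.25) held the checkpoint gene BUB3.1 at 394, 364 and 222 against 409, 474 and 642 (-0.63, SE 0.321, limma adjusted p = 0.348) and the mitotic kinases AUR1 and AUR2 at -0.25 (SE 0.233) and 0.20 (SE 0.286). DNA replication and repair genes stood at a median of -0.06 over 17, with ATLIG4, a DNA ligase, at 0.62 (SE 0.336). Neither set had a member past the threshold.

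Of 16 auxin genes on the array 7 were measured, with a median of -0.23 and YUC4 fallen. YUC2, another enzyme of the same step, stood at 0.51 (SE 0.445), and the response repressors IAA31 and IAA18 at -0.31 (SE 0.332) and -0.23 (SE 0.293). Glutaredoxins and glutathione transferases held 1 fallen member, ROXY1, beside GSTU23, which read 119.9, 150.3 and 226 in suspensor nuclei and 68.3, 19.6 and 4.99 in proembryo nuclei and lay just outside the threshold (2.15, SE 0.56, limma adjusted p = 0.0541). Of 3 alternative NAD(P)H dehydrogenases NDB4 fell, while NDB2 stood at 0.36 (SE 0.345) and NDB1 at -0.05 (SE 0.332).

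Vesicle and protein turnover genes had slightly positive medians and no called member. Endosomal sorting and exocyst genes stood at a median of 0.29 over 18, yet subunits of the exocyst, which tethers vesicles to the plasma membrane, lay on both sides, SEC5A at 0.92 (SE 0.3) and SEC6 at -1.44 (SE 0.417). Ubiquitin conjugation and removal genes had a median of 0.23 over 25. The conjugating enzyme UBC20 read 886, 856 and 909 against 1979, 1567 and 1431 (-0.88, SE 0.232, limma adjusted p = 0.0549), and the ligase PUB26 stood at 1.54 (SE 0.506). The vacuolar processing enzymes and subtilases (8 measured, median 0.26) were led by BETA-VPE at 0.55 (SE 0.317), the 3 measured VHA genes of the vacuolar proton pump had a median of 0.30 with VHA-A3 at 0.58 (SE 0.316), and actin and myosin genes stood at 0.16 over 12 with XI-I at 0.59 (SE 0.307).

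Nuclear genes of the photosystems had a median of 0.33 over 8, 7 of them higher and 0 past the threshold, with PSBW at 5723, 4863 and 5683 against 4341, 2624 and 3769 (0.62, SE 0.23, limma adjusted p = 0.178). Plastid-encoded genes (34 of 69 measured, median 0.13) and mitochondrion-encoded genes (13 measured, median 0.10, cox1 at 0.92 with SE 0.357) had 0 members past the threshold. The plastid gene rpl33 stood at 1.31 (SE 0.524), but it passed the filter through the suspensor arrays alone, so nothing is read from its lean. Both medians turned sign when suspensor replicate 1 was left out, to -0.29 and -0.17. The plastid median was also -0.02 without proembryo replicate 2, and the mitochondrial one -0.09 without proembryo replicate 3. Each median covers the members kept in that fit, so rpl33 is missing where a suspensor array was left out.

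The other families also had 0 members past the threshold. Transcription factors of the bZIP, bHLH and WRKY families stood at a median of 0.10 over 16, with the bZIP gene AT2G40620 at -1.29 (SE 0.371, limma adjusted p = 0.0813). Of 42 MADS-box genes on the array 7 were measured (median -0.03), with AGL26 at 193, 113 and 13.7 against 228, 271 and 266 (-1.54, SE 0.492, limma adjusted p = 0.117) on 1 probe set, while its other probe set, at 15.5 or lower on all nuclei arrays, was not kept. Enzymes of specialised metabolism gave medians of -0.05 for 12 glycosyltransferases (UGT71C3 at -1.72, SE 0.578), -0.39 for 5 cytochrome P450s (CYP71B6 at 0.62, SE 0.289) and 0.32 for 9 beta-glucosidases (BGLU42 at 0.51, SE 0.323).

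**Figure D4:**
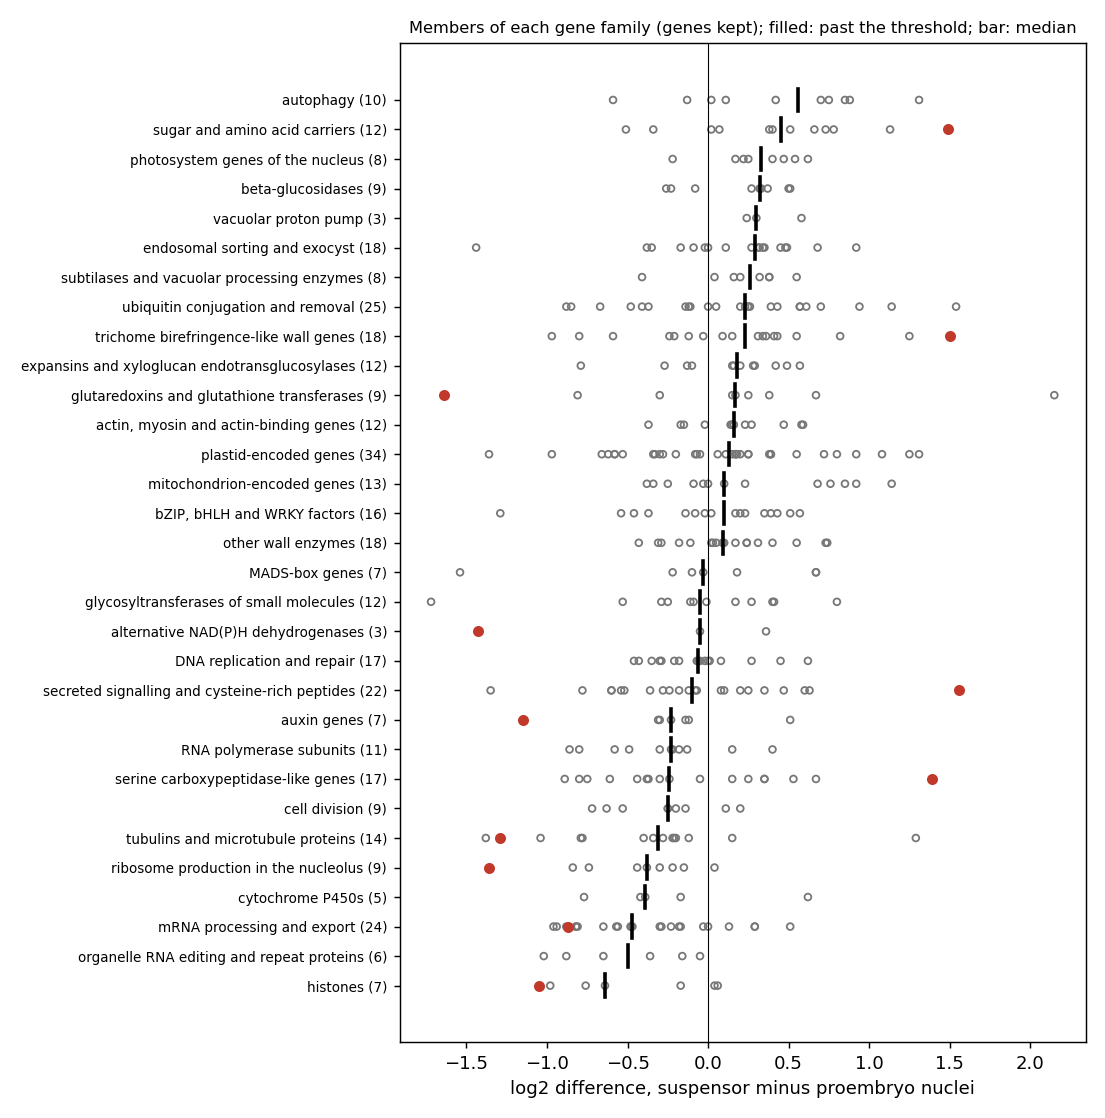
Log2 difference between suspensor and proembryo nuclei for each measured member of 31 gene families, with the number of genes kept in brackets, members past the threshold as filled red points and family medians as bars. Medians run from -0.64 for histones to 0.56 for autophagy, and red points are single members at or near the end of their family's range in most families that have one.

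How many genes were called depended on single arrays. Without suspensor replicate 1 it was 421 in place of 260 (3.36% of the probe sets then tested, 106 higher and 315 lower), and without suspensor replicates 2 and 3 it was 98 (0.785%) and 111 (0.891%). Without proembryo replicates 1, 2 and 3 it was 113 (0.901%), 118 (0.944%) and 85 (0.68%), and without those of whole-embryo nuclei 227 (1.82%), 189 (1.51%) and 240 (1.92%). Among the 171 lower probe sets, suspensor replicate 1 was the suspensor array nearest the proembryo for 92, replicate 2 for 45 and replicate 3 for 34, and among the 89 higher ones for 37, 25 and 27. The excess of lower over higher calls did not hold without proembryo replicate 1 (62 higher, 51 lower) or replicate 2 (60 and 58). Of the 25 genes and loci chosen by rule, 22, 13 and 8 passed without suspensor replicates 1, 2 and 3 and 15, 12 and 11 without proembryo replicates 1, 2 and 3, and RALFL18 and MAC3B each passed in 1 of the 9 leave-one-out fits.

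**Figure D5:**
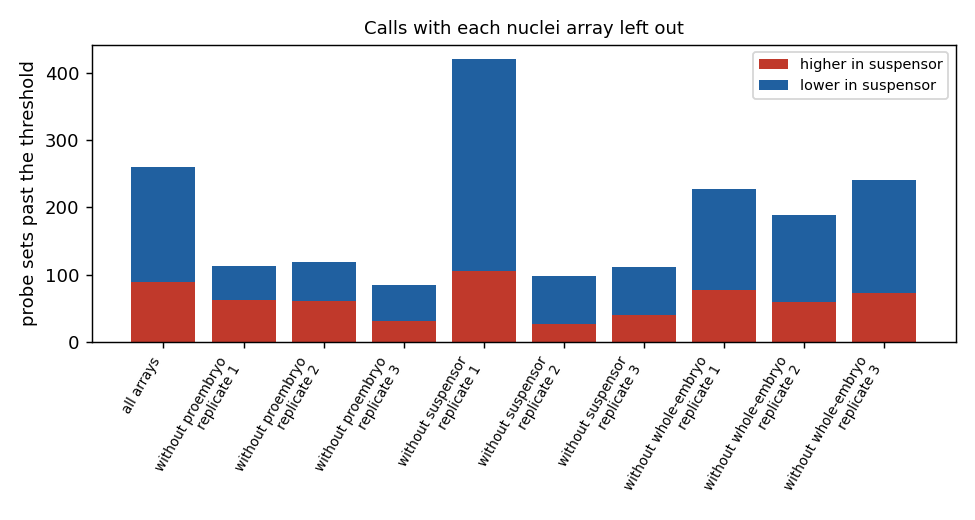
Number of probe sets past the threshold, split into those higher (red) and lower (blue) in suspensor nuclei, with all 9 nuclei arrays in the fit and with each left out in turn. The count is 260 with all arrays, 421 without suspensor replicate 1 and 85 without proembryo replicate 3.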

How the data were processed

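Per the labels, RNA was amplified in a single round, biotin-labelled and hybridised to ATH1 arrays. The deposited values are linear intensity values, and the submitters' processing notes name MAS5 and affy 1.32.1 without a role. The sources used here do not say how background and summarisation were handled. The mean after trimming 2% from each end was 200.02 on every array, so nothing was rescaled. The 64 control probe sets of 22810 were dropped, and the filter kept those above its array's median on at least 3 of the 9 nuclei arrays. The test was that of limma 3.58.1 under R 4.3.3 (intensity trend, Benjamini-Hochberg, threshold 0.05) and the procedure was tested on simulated data. Changes were planted there only in probe sets with a mean above the median, under independent normal noise. The procedure recovered 14.1% of the planted changes of 1 log2 unit and 76.8% of those of 2. Dimmer probe sets were not covered. A gene not past the threshold may therefore still differ. The number of arrays, 3 a group, limits the precision.

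Names came from the platform annotation, updated through TAIR10.1 gene identifiers: 13513 probe sets had 1 gene (13436 of them matched), 503 several and 8730 none here. The rule for named genes took, among non-overlapping single-gene calls, the 15 largest per direction with a symbol or name (8 and 7 existed), the 5 largest without, and in each family the called members (up to 4 per direction) or the 1 with the smallest p. Members, lists and rules were chosen with earlier results of these data known. The word patterns first set for the lists matched few names, so families were rebuilt from symbols after values had been seen. Same-numbered arrays of the lineages deviated with correlations of 0.0697, -0.00565 and -0.064, so the numbers were not taken as pairs. No gene sequences were used here.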

Additional observations from a re-analysis of the deposited data

How the results depend on the processing

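Against 260, the count of changed probe sets fell to 17 (9 higher) if limma used no intensity trend, and was 62 with median centring, 135 with the control level as a covariate, 141 with all 12 arrays, 155 with only the 6 arrays compared and 167 without the filter. It was 212 and 350 with pseudocounts of 1 and 64, 261 with a filter of 6 arrays and also with quantile normalization, and 285 with the replicate number as a block (99 higher), of which 243 were among the 260. Leaving out 1 nuclei array gave 85 to 421. All 25 genes and loci chosen by rule kept their direction in all 20 alternatives, but for most alternatives this was fixed in advance. Groups chosen not to overlap cannot turn where an array is left out or the pseudocount changes. The trend, the filter, the replicate block and the set of other arrays in the fit leave the difference as it was. Only median centring, quantile normalization and the covariate could have turned a direction. Of the 25, 9 passed with median centring, 4 if no trend was used, 13 with all 12 arrays, 14 with the covariate, 17 with the 6 arrays and 18 without the filter. The 4 were AT5G48350, AT5G62440, AT2G31945 and AT3G62480, all known only by a locus tag. No gene with a symbol or name passed without the trend. Median centring moved the median of all probe sets from 0.01 to -0.09. Over these alternatives family medians ran from 0.41 to 0.74 for autophagy, 0.27 to 0.63 for carriers, -0.74 to -0.31 for histones, -0.58 to -0.31 for mRNA processing and -0.48 to -0.27 for ribosome production. Other family medians turned sign under at least 1 alternative, from 0.18 to as low as -0.01 for expansins, 0.09 to -0.04 for other wall enzymes, 0.13 to -0.29 for plastid-encoded and 0.10 to -0.17 for mitochondrion-encoded genes, and from -0.10 to as high as 0.01 for secreted peptides, -0.05 to 0.15 for alternative NAD(P)H dehydrogenases, -0.05 to 0.08 for glycosyltransferases and -0.03 to 0.27 for MADS-box genes, while that of bZIP, bHLH and WRKY factors reached 0. Each median covers only the members that the filter kept in that alternative, so the genes behind it can differ. The causes of these shifts were not tested.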
